A study of Mus musculus with 4 samples.

Results

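The WNT signalling genes described here were 57 members taken by name from a list, out of 33456 genes counted in each library. They comprised 17 WNT ligands, 14 receptors and co-receptors, 7 R-spondins and LGR receptors, 13 secreted or membrane inhibitors, and 6 nuclear effectors and feedback targets. The rule took genes by name and set no threshold on measured values, but the list was drawn up with earlier results of these data known. All 57 were found in the count tables, and 55 of them had at least 20 unique molecular identifiers (UMIs, each counting a captured RNA molecule once) in at least 1 library. Wnt2b and Sfrp4 had at most 8 UMIs in any library and are not described further.

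Single-cell RNA was measured by droplet sequencing of transcript 3' ends in the developing hindlimb of C57BL/6 mouse embryos. The 4 stages were E11.5, a limb bud stage, E13.5, a stage of cartilage formation, E15.5, when the joint cavity opens, and E18.5, when the joint takes its shape. Each stage was 1 library made from the pooled cells of several pups of a single litter, and the labels named no mutation, transgene or treatment. The limbs were digested with collagenase and pronase, and the cells were strained, frozen, thawed and cleared of dead cells before loading, so all 4 libraries share those steps.

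WNT ligands are lipid-modified secreted proteins that bind Frizzled receptors. With the LRP5 and LRP6 co-receptors they stabilise β-catenin, which acts through LEF and TCF factors, while with ROR receptors some of them act without β-catenin. R-spondins bind LGR receptors and keep Frizzled proteins at the cell surface, and SFRP, FRZB, WIF1, DKK, SOST and NOTUM proteins limit the signal outside the cell. In the limb, WNT proteins of the ectoderm and its apical ridge are known for their part in outgrowth and patterning, and those of the joint interzone and perichondrium for their part in joint and cartilage development.

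After removing barcodes with few genes or a high mitochondrial share, the libraries kept 2640 cells at E11.5, 2816 cells at E13.5, 2598 cells at E15.5 and 1904 cells at E18.5. Their medians per cell were 8943 UMIs at E11.5, 10276 UMIs at E13.5, 9957 UMIs at E15.5 and 6960 UMIs at E18.5. Levels are given as UMIs per 1000000 UMIs of the cells summed (CPM, counts normalized for depth), with globin genes left out. Cell classes were gated by counts of marker genes, and no WNT gene was among the markers. Epithelium held 367 cells at E11.5, 235 cells at E13.5, 172 cells at E15.5 and 230 cells at E18.5, and for the same stages endothelium held 394, 104, 101 and 44 and leukocytes 51, 47, 97 and 199. Limb mesenchyme held 1656 cells at E11.5, 450 cells at E13.5 and 170 cells at E15.5, and the Gdf5-positive gate 69, 129 and 77. That gate required Gdf5, a gene known from the joint interzone, and another joint marker. Whether its cells were interzone cells was not tested at any stage, and at E11.5 chondrocyte markers were as many as joint markers among its leading genes. Chondrocytes held 1379 cells at E13.5, 1353 cells at E15.5 and 245 cells at E18.5, and at the same stages fibroblasts 135, 235 and 310 and muscle 68, 134 and 337. The hypertrophic and osteoblast gate held 92 cells at E13.5 and 156 cells at E15.5, and pericytes and smooth muscle 348 at E18.5. Gates under 30 cells were not compared, which left out Gdf5-positive cells at E18.5. Among the 10 leading genes by fold of each compared gate, markers of its own class were at least as many as those of any other class, and chondrocytes at E15.5 had 0 of either. The same markers set the gates, so this count cannot serve as a separate check of what the cells were. At E13.5 and E15.5 the 1 joint marker among the leading genes of the Gdf5-positive gate was Gdf5 itself. Between 6 and 15 cell barcodes were shared by any pair of libraries.

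With 1 library per stage there is no replicate and no test. Genes are called higher or lower below when their CPM differed at least 2-fold, the exact 95% interval of the ratio lay on the same side of 1, and both sides together had at least 20 UMIs. A count of 0 is given with the level that 3 counts would have, as the limit it allows. Intervals and these limits cover counting error only, and stage, litter and library cannot be told apart. In sums over a whole library, fewer cells of a type and less RNA per cell cannot be told apart either. Levels of different genes are not compared with each other.

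Promoter letters are shown for members whose levels are described below, because TCF and LEF factors bind a short core motif through which the pathway reaches its targets. RefSeq promoter windows (GRCm38.p6, 250 bases before to 50 after the start) matched 40 of the 57 members. The core was searched in 4 spellings on both strands. The first was CTTTGAA, a further spelling was CTTTGAT, the next was CTTTGTA, and the last was CTTTGTT. It was present for 7 of the 40 members, which is 17.5%, and for 5121 of 27025 genes, which is 18.9%. The 7 were Wnt3, Wnt5b, Wnt11, Fzd7, Dkk1, Lef1 and Tcf7l2. Stretches of 120 bases are shown for the ligand Wnt11 (chr7:98834992-98835111, plus strand), the receptor Fzd7 (chr1:59481960-59482079, plus strand) and the feedback target Axin2 (chr11:108920229-108920348, plus strand). Capitals mark a core match read on the plus strand, 51 bases before the start of Wnt11 and 130 before that of Fzd7, and the Axin2 stretch has none.
Wnt11: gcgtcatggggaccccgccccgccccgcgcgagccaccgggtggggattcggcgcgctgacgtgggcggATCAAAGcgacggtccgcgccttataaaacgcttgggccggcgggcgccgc
Fzd7: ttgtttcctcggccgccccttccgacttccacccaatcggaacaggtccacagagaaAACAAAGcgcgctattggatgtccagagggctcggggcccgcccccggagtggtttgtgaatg
Axin2: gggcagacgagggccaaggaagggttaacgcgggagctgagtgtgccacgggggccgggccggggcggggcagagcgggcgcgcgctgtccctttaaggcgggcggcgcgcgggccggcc
A match is a description of these letters and was not tested as a site.

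Epithelium held more ligand UMIs than any other gate in each library. It held 65.7%, 43.8%, 41.1% and 60.2% of all ligand UMIs at the successive stages, with 13.8%, 8.32%, 6.62% and 11.6% of the UMIs of all genes. Of the members with at least 20 UMIs, 16 of 51 were higher in epithelium than in the other cells at E11.5, 18 of 52 at E13.5, 15 of 49 at E15.5 and 14 of 48 at E18.5. Over all genes tested, 9.1%, 9.32%, 8.36% and 8.76% were higher in epithelium at those stages. Wnt3, Wnt4, Wnt6, Wnt7b, Wnt10a and Kremen2 were among the higher genes at all 4 stages, together with the receptor Fzd6.

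Wnt6 (chr1:74771892-74785322, plus strand, GRCm38, GENCODE vM21), a ligand known from limb ectoderm, had 2311 UMIs at E11.5, 1157 UMIs at E13.5, 688 UMIs at E15.5 and 275 UMIs at E18.5 in epithelium. Its level there was 620.3 CPM at E11.5, 396 CPM at E13.5, 349.9 CPM at E15.5 and 161 CPM at E18.5, against 3.61, 2.67, 1.44 and 5.59 CPM in the other cells. The epithelial level was lower at each later stage and stayed above that of the other cells throughout. At least 1 Wnt6 UMI was counted in 95.1% of cells at E11.5, 90.6% of cells at E13.5, 80.2% of cells at E15.5 and 58.7% of cells at E18.5. After thinning every cell to 5000 UMIs the shares were 93.5%, 79.9%, 70.9% and 48.2%. In endothelium, a class that should lack it, the share was 2.54% at E11.5, with a median of 10996 UMIs per cell, against 9017 in epithelium, and no endothelial cell had a Wnt6 UMI at the later stages. Another gene overlaps 24 of the members in the annotation, antisense for 21 of them, Wnt6, Wnt5b, Lgr5 and Kremen2 included. The counting strand is not stated in the sources used here, so reads of such pairs may not be told apart.

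Wnt7b (chr15:85535437-85582473, minus strand) and Wnt7a (chr6:91363981-91411363, minus strand), which marks dorsal limb ectoderm, were lower in later epithelium. Wnt7b had 282 CPM at E11.5, 182 CPM at E13.5, 105 CPM at E15.5 and 87.4 CPM at E18.5 in epithelium, against 1.42, 1.09, 0.396 and 0.766 CPM in the other cells. Wnt7a had 89.4 CPM at E11.5, 24.6 CPM at E13.5, 19.3 CPM at E15.5 and 5.86 CPM at E18.5 in epithelium, and 333 of its 341 UMIs at E11.5 were epithelial. Within epithelium, Wnt7a was 15.2-fold lower (95% interval 8.19 to 32.1) at E18.5 than at E11.5, Wnt6 was 3.85-fold lower (95% interval 3.39 to 4.38) and Wnt7b was 3.23-fold lower (95% interval 2.72 to 3.86). The median gene of epithelium stood at a log2 ratio of -0.87 in that comparison, where 43.4% of all genes were lower. Relative to that median, Wnt7a and Wnt6 stayed more than 2-fold lower, and Wnt7b was less than 2-fold lower. Wnt4, a ligand found in several epithelia and in joints, differed by less than 2-fold between stages there, with 166 CPM at E11.5, 185 CPM at E13.5, 165 CPM at E15.5 and 188 CPM at E18.5. Wnt3 (chr11:103774150-103817957, plus strand), which the mouse apical ridge is known to need, had 69.5 CPM at E11.5, 68.0 CPM at E13.5, 44.8 CPM at E15.5 and 36.9 CPM at E18.5 in epithelium, which held 259 of its 267 UMIs at E11.5.

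Wnt10a, Wnt10b and Wnt16 were higher in later epithelium. Wnt16 (chr6:22288227-22298522, plus strand) had 1 UMI at E11.5, 25 UMIs at E13.5, 42 UMIs at E15.5 and 124 UMIs at E18.5 in epithelium, which is 0.268, 8.55, 21.4 and 72.7 CPM in the same order. Its E18.5 level was 237 times that of the other cells of the library. Wnt10a, known from tooth and skin appendage development, had 16.9 CPM at E11.5, 47.2 CPM at E13.5, 58.5 CPM at E15.5 and 42.2 CPM at E18.5 in epithelium, against 0.129, 0.435, 0.252 and 0.306 CPM in the other cells. Wnt10b, its close relative, had 3.49 CPM at E11.5, 6.16 CPM at E13.5, 8.65 CPM at E15.5 and 12.9 CPM at E18.5 in epithelium, from 13 UMIs at E11.5, 18 UMIs at E13.5, 17 UMIs at E15.5 and 22 UMIs at E18.5. Wnt3a had 31 UMIs at E13.5, all in epithelium, at 10.6 CPM, and between 7 and 15 UMIs in each of the other libraries. Wnt2 had 50 of its 77 UMIs in epithelium at E11.5, and Wnt9b 22 of 24. Within epithelium at E18.5 over E11.5, 7 of 45 members were higher and 20 lower, where 10.2% and 43.4% of all genes were. Relative to the median gene of that gate, 12 members were higher and 15 lower, where 19.7% and 13.6% of all genes were. The higher ones as CPM, besides these 3 ligands, were Fzd5, Lgr4, Lgr6 and Wif1.

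**Figure D1:**
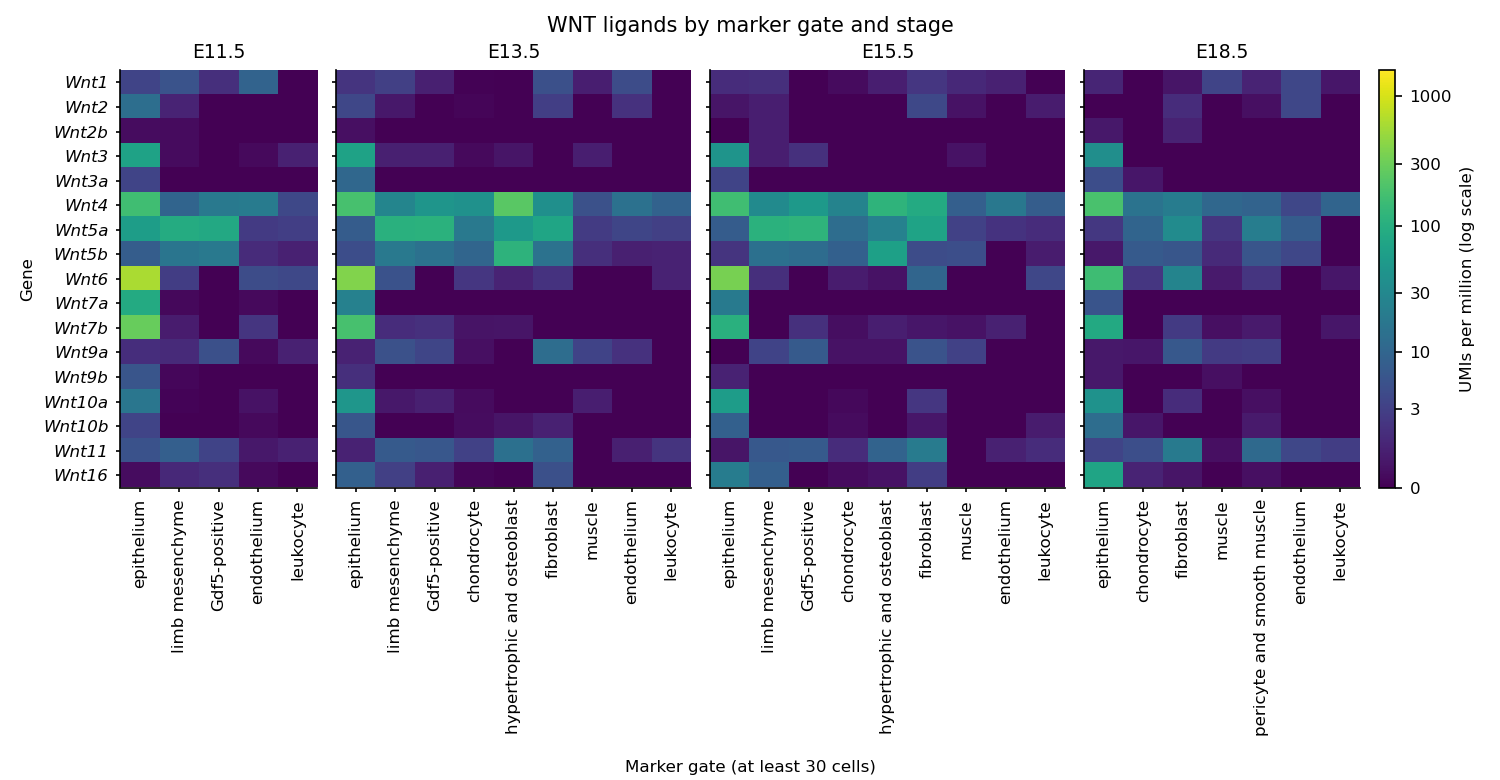
CPM of each WNT ligand in each marker gate of at least 30 cells at each stage, on a logarithmic colour scale. Brighter colours are higher levels. Wnt6, Wnt7b, Wnt3 and Wnt10a were brightest in the epithelium columns, Wnt5a in the Gdf5-positive, fibroblast and limb mesenchyme columns, and Wnt5b in the hypertrophic and osteoblast columns.

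At E11.5 the epithelium could be divided by Fgf8, the growth factor that marks the apical ridge and was not a member. In the epithelial gate 23 cells had 2 or more Fgf8 UMIs and held 738 of the library's 772 Fgf8 UMIs, 6 had 1, and 338 had none. Of 38 members with at least 20 UMIs, 11 were higher and 4 lower in the 23 Fgf8-positive cells than in the 338 Fgf8-negative ones, where 4.14% and 4.1% of all 9685 genes tested were. The 23 cells are below the 30 used elsewhere.

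Wnt5a (chr14:28504750-28527448, plus strand), a ligand of β-catenin-independent signalling known for its part in limb outgrowth, had 272 CPM in Fgf8-positive cells and 48.6 CPM in Fgf8-negative cells, or 5.59-fold higher (95% interval 3.96 to 7.76). Rspo2, the R-spondin known from the ridge, had 23 UMIs in Fgf8-positive cells and 0 in Fgf8-negative cells. Outside the epithelium, limb mesenchyme held 52 of the 79 Rspo2 UMIs of the E11.5 library, at 3.25 CPM. Notum (chr11:120653788-120661175, minus strand), an enzyme that inactivates WNT proteins, had 208 CPM in Fgf8-positive cells and 12.1 CPM in Fgf8-negative cells and was 17.2-fold higher (95% interval 10.7 to 27.5). The receptor Fzd1 had 300.3 CPM in Fgf8-positive cells and 55.5 CPM in Fgf8-negative cells. The nuclear effectors Lef1 and Tcf7 differed the same way, with Lef1 at 185 CPM in Fgf8-positive cells and 35.4 CPM in Fgf8-negative cells and Tcf7 at 179 CPM in Fgf8-positive cells and 27.0 CPM in Fgf8-negative cells. Kremen1, a receptor for DKK proteins, had 144 CPM in Fgf8-positive cells and 19.8 CPM in Fgf8-negative cells. Wnt10a, Wnt11, Fzd7 and Frzb made up the rest of the 11 higher members.

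The 4 lower members were Wnt7a, Wnt7b, Sost and the repressor Tcf7l1. Sost (chr11:101962458-101967015, minus strand), which encodes sclerostin, an LRP inhibitor known from bone, had 11.6 CPM in Fgf8-positive cells and 210.4 CPM in Fgf8-negative cells and was 18.2-fold lower (95% interval 5.03 to 151). Wnt7b had 34.6 CPM in Fgf8-positive cells and 293 CPM in Fgf8-negative cells and was 8.46-fold lower (95% interval 3.87 to 23.1). Wnt7a had 11.6 CPM in Fgf8-positive cells and 94.3 CPM in Fgf8-negative cells. Wnt6 had 1103 CPM in Fgf8-positive cells and 594 CPM in Fgf8-negative cells, a difference below 2-fold.

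**Figure D2:**
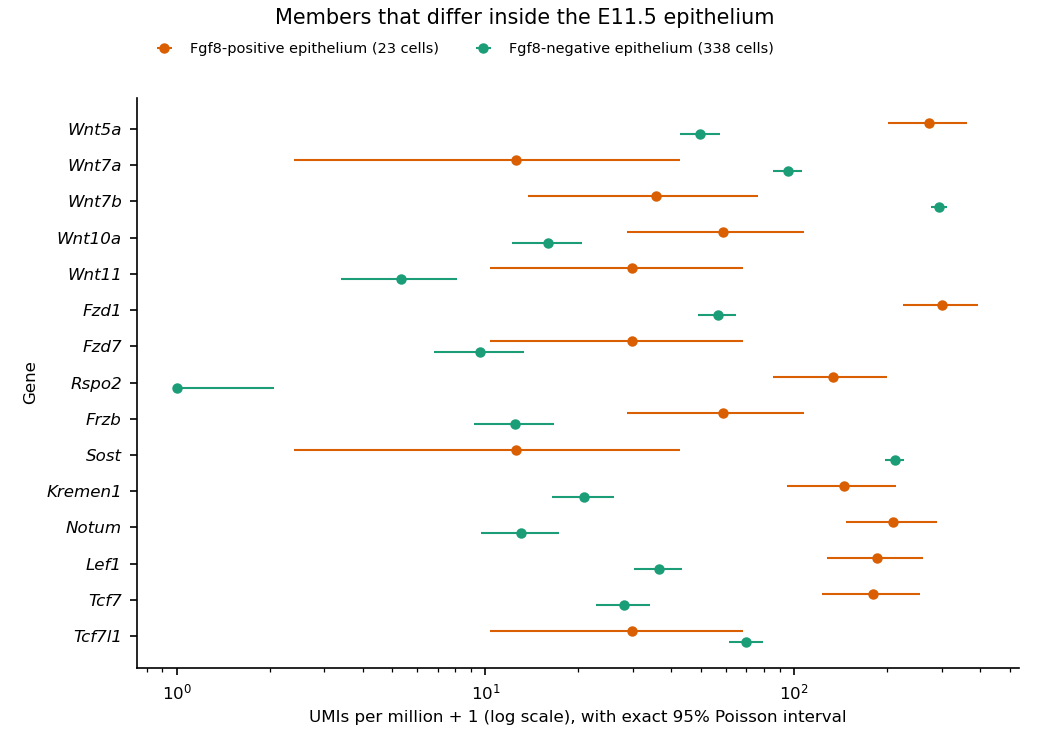
Levels of members in E11.5 epithelium, as CPM + 1 on a logarithmic axis, in 23 Fgf8-positive cells and 338 Fgf8-negative cells, with exact 95% Poisson intervals. Wnt5a, Notum, Fzd1, Lef1 and Tcf7 lay higher in the Fgf8-positive cells, and Sost, Wnt7b and Wnt7a lower.

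In the mesenchyme, Wnt5a was present at every stage, Wnt11 was higher in limb mesenchyme than in other cells at E11.5 and in fibroblasts at E15.5 and E18.5, and Wnt9a was sparse. Wnt5a had 91.0 CPM at E11.5, 107 CPM at E13.5 and 111 CPM at E15.5 in limb mesenchyme, 83.2 CPM at E11.5, 109 CPM at E13.5 and 119 CPM at E15.5 in Gdf5-positive cells, and 74.4 CPM at E13.5, 70.9 CPM at E15.5 and 34.0 CPM at E18.5 in fibroblasts. In chondrocytes it had 18.6 CPM at E13.5, 12.8 CPM at E15.5 and 9.78 CPM at E18.5, and in epithelium 59.6 CPM at E11.5, 7.52 CPM at E13.5, 7.63 CPM at E15.5 and 2.35 CPM at E18.5. Limb mesenchyme and Gdf5-positive cells held levels of Wnt5a within 1.5-fold of each other at each stage, and both lay above chondrocytes at E13.5 and E15.5. Within fibroblasts Wnt5a was 2.08-fold lower (95% interval 1.54 to 2.84) at E18.5 than at E15.5. Wnt11, also a ligand of β-catenin-independent signalling, had 131 of its 165 UMIs at E11.5 in limb mesenchyme, at 8.19 CPM, against 3.10 CPM in the other cells. Later it had 8.93 CPM at E13.5, 20.7 CPM at E15.5 and 19.8 CPM at E18.5 in fibroblasts and 14.4 CPM at E13.5 and 9.49 CPM at E15.5 in the hypertrophic and osteoblast gate. In pericytes and smooth muscle Wnt11 had 11.3 CPM at E18.5, against 5.62 CPM in the other cells.

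Wnt9a, a ligand known from the joint interzone, was sparse, with 37 UMIs at E11.5, 60 UMIs at E13.5, 34 UMIs at E15.5 and 32 UMIs at E18.5. Gdf5-positive cells held 3 UMIs at E11.5, 4 UMIs at E13.5 and 4 UMIs at E15.5, and chondrocytes 7 UMIs at E13.5, 7 UMIs at E15.5 and 1 UMI at E18.5. As levels, the Gdf5-positive cells had 5.09 CPM at E11.5, 3.61 CPM at E13.5 and 7.09 CPM at E15.5, and fibroblasts 12.9 CPM at E13.5, 5.58 CPM at E15.5 and 6.61 CPM at E18.5. At this depth the interval in Gdf5-positive cells at E15.5 ran over 1.93 to 18.1 CPM and overlapped that of fibroblasts, 2.68 to 10.3 CPM. Wnt16, also known from joints, had 1 UMI at E11.5, 1 UMI at E13.5 and 0 UMIs at E15.5 in Gdf5-positive cells, and the count of 0 allows up to 5.32 CPM. Wnt4 had 18.7 CPM at E11.5, 46.1 CPM at E13.5 and 53.2 CPM at E15.5 in the Gdf5-positive cells, below the epithelial level at each stage.

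Cells of the hypertrophic and osteoblast gate carried Wnt4 and Wnt5b. Of the members, 8 of 52 were higher there than in other cells at E13.5 and 9 of 49 at E15.5, where 4.81% and 7.18% of all genes were. Wnt4 (chr4:137277489-137299726, plus strand) had 239.6 CPM at E13.5 and 121 CPM at E15.5, against 48.4 and 38.3 CPM in the other cells. Wnt5b (chr6:119432531-119544347, minus strand), known from hypertrophic cartilage, had 118 CPM at E13.5 and 65.5 CPM at E15.5, against 10.2 and 7.22 CPM in the other cells. Wnt5b was 11.6-fold (95% interval 9.70 to 13.7) higher at E13.5 and 9.07-fold (95% interval 7.29 to 11.3) higher at E15.5. At E15.5 the bone inhibitor Sost had 24 of its 33 UMIs in this gate.

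Fzd9 (chr5:135248938-135251230, minus strand), a Frizzled receptor, had most of its UMIs in cartilage at E13.5 and later. It had 1485 UMIs at E13.5, 1658 UMIs at E15.5 and 277 UMIs at E18.5 in chondrocytes, or 72.5, 101 and 151 CPM in the same order, against 17.3, 17.3 and 6.81 CPM in the other cells. The whole E11.5 library held 84 of its UMIs. Fzd9, Ror2, Sfrp1, Sfrp5 and Notum were the 5 of 52 members higher in chondrocytes at E13.5, where 4.6% of all genes were. At E15.5 the 5 of 49 were Fzd9, Ror2, Rspo3, Lgr4 and Sfrp1, and at E18.5 there were 12 of 48, where 6.22% and 12.6% of all genes were higher. Ror2, the WNT5A receptor whose human gene is mutated in a form of brachydactyly, had 32.2 CPM at E13.5, 30.9 CPM at E15.5 and 19.6 CPM at E18.5 in chondrocytes and 35.7 CPM at E13.5, 45.8 CPM at E15.5 and 34.5 CPM at E18.5 in fibroblasts.

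Fzd2 (chr11:102604396-102608058, plus strand), a widely expressed Frizzled, had 290.3 CPM at E11.5, 147 CPM at E13.5 and 158 CPM at E15.5 in Gdf5-positive cells and 191 CPM at E11.5, 154 CPM at E13.5 and 137 CPM at E15.5 in limb mesenchyme. In endothelium it had 8.92 CPM at E11.5, 6.45 CPM at E13.5 and 3.87 CPM at E15.5, and in leukocytes 6.87 CPM at E11.5, 10.2 CPM at E13.5, 2.32 CPM at E15.5 and 1.72 CPM at E18.5. Its level was thus higher in both mesenchymal gates than in the blood and vessel gates. Fzd4, the receptor known from vessel development, was the 1 of 51 members higher in endothelium at E11.5, where 10.0% of all genes were, and it had 21.4 CPM at E11.5, 20.3 CPM at E13.5, 9.67 CPM at E15.5 and 26.2 CPM at E18.5 in that gate. In Gdf5-positive cells Fzd4 had 11.9 CPM at E11.5, 23.5 CPM at E13.5 and 21.3 CPM at E15.5. It was higher than in other cells in Gdf5-positive cells, limb mesenchyme and muscle at E13.5 and E15.5, and not in endothelium at E15.5. Fzd6 had 30.9 CPM at E11.5, 30.1 CPM at E13.5, 31.0 CPM at E15.5 and 12.9 CPM at E18.5 in epithelium. It was also higher in endothelium than in other cells at the later stages, with 8.29 CPM at E13.5, 17.4 CPM at E15.5 and 63.7 CPM at E18.5, and its E18.5 level there, from 17 UMIs, was above that of epithelium. Fzd10 had 17.2 CPM at E11.5, 58.5 CPM at E13.5, 43.2 CPM at E15.5 and 28.7 CPM at E18.5 in epithelium. Fzd8 had 11.9 CPM at E11.5, 28.9 CPM at E13.5 and 35.4 CPM at E15.5 in Gdf5-positive cells.

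The co-receptors Lrp5 and Lrp6 were counted in most gates and differed between them at E18.5. Lrp6 had 24.3 CPM at E13.5, 27.0 CPM at E15.5 and 30.4 CPM at E18.5 in chondrocytes, 26.8 CPM at E13.5, 20.1 CPM at E15.5 and 21.9 CPM at E18.5 in fibroblasts and 19.3 CPM at E11.5, 15.0 CPM at E13.5, 13.7 CPM at E15.5 and 15.2 CPM at E18.5 in epithelium. It had 0 UMIs in the 44 endothelial cells of E18.5, which allows up to 11.2 CPM. Lrp5 had 11.3 CPM at E13.5, 14.3 CPM at E15.5 and 21.7 CPM at E18.5 in chondrocytes. In the E18.5 endothelium Lrp5 had 74.9 CPM from 20 UMIs, against 12.9 CPM in the other cells, and in muscle of that library 7.38 CPM. Fzd5, another Frizzled, had 8 UMIs at E11.5, 2 UMIs at E13.5, 2 UMIs at E15.5 and 22 UMIs at E18.5 in epithelium, so its level of 12.9 CPM at E18.5 stood above the earlier ones. Ror1, the paralogue of Ror2, had 3.97 CPM at E13.5, 7.82 CPM at E15.5 and 8.64 CPM at E18.5 in fibroblasts. Fzd1 had 67.6 CPM at E11.5, 9.57 CPM at E13.5, 8.14 CPM at E15.5 and 7.62 CPM at E18.5 in epithelium, and the Fgf8-positive cells held 52 of its 252 UMIs at E11.5. Fzd3 was lower at each later stage than at E11.5, at 22.7 CPM at E11.5, 7.60 CPM at E13.5, 5.21 CPM at E15.5 and 5.76 CPM at E18.5, and Fzd7 had 10.7 CPM at E11.5, 8.03 CPM at E13.5, 7.87 CPM at E15.5 and 10.1 CPM at E18.5 in the whole libraries.

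**Figure D3:**
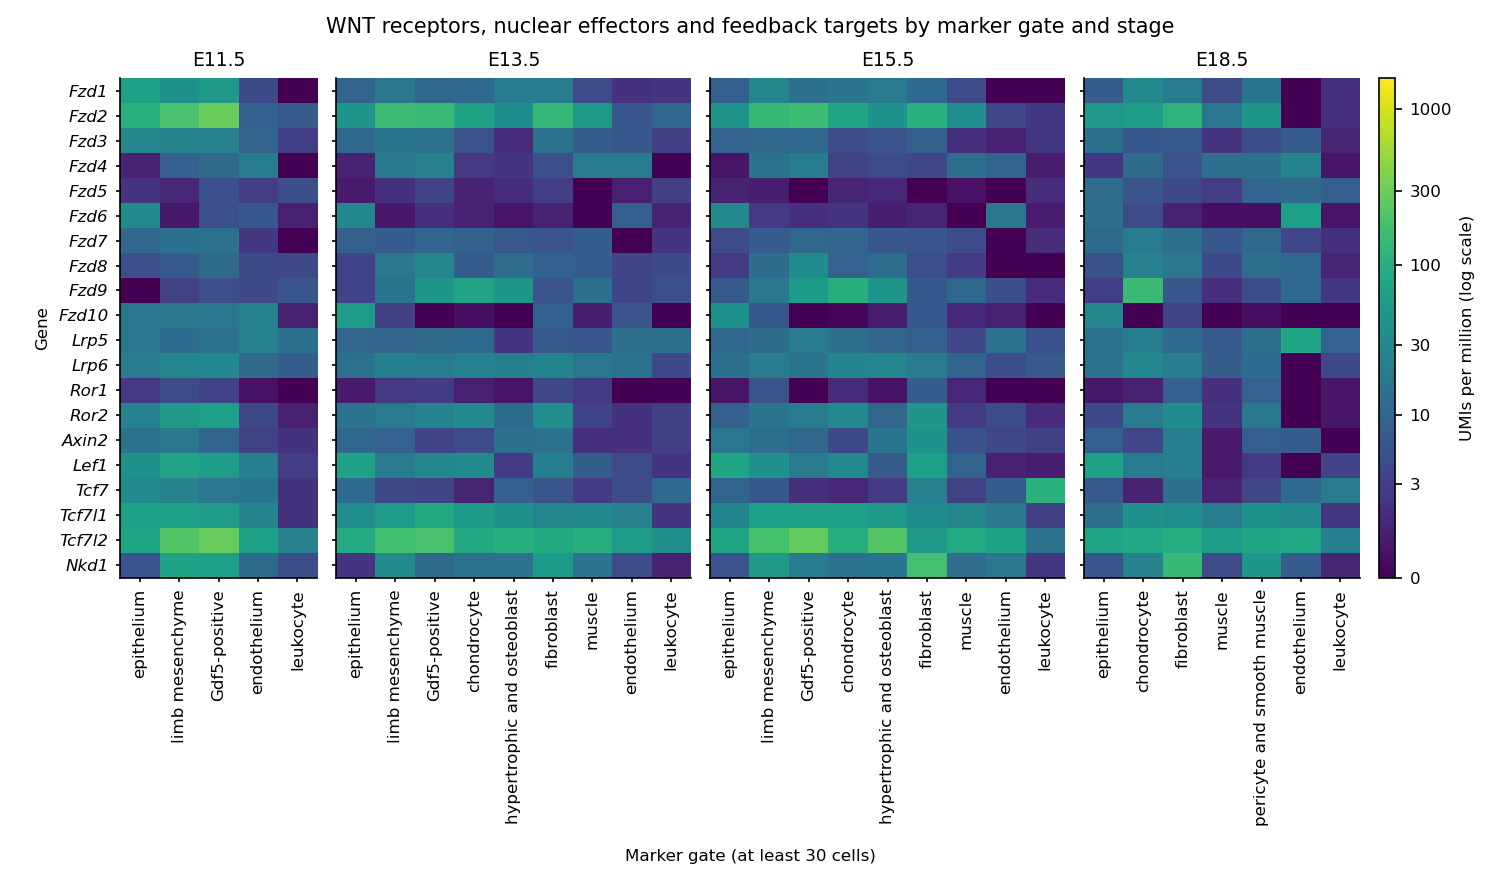
CPM of receptors, nuclear effectors and feedback targets in each gate of at least 30 cells at each stage, on a logarithmic colour scale. Brighter colours are higher levels. Fzd9 was brightest in the chondrocyte columns, Fzd10 in epithelium at E13.5 to E18.5, and Nkd1 and Axin2 in fibroblasts at E15.5 and E18.5.

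Among R-spondins, Rspo3 (chr10:29452416-29535867, minus strand) and Rspo1 were higher in fibroblasts than in other cells at E13.5 and later, and Rspo2 was counted mostly at E11.5. Limb mesenchyme held 659 of the 780 Rspo3 UMIs at E11.5, at 41.2 CPM, and Gdf5-positive cells had 57.7 CPM. Rspo3 had 111 CPM at E13.5, 103 CPM at E15.5 and 131 CPM at E18.5 in fibroblasts, 46.6 CPM at E13.5, 60.4 CPM at E15.5 and 62.0 CPM at E18.5 in chondrocytes and 9.66 CPM at E11.5, 47.5 CPM at E13.5, 12.7 CPM at E15.5 and 0.586 CPM at E18.5 in epithelium. Chondrocytes, the gate with most cells at E15.5, held 990 of its 1389 UMIs there and were also higher in Rspo3 than other cells at E15.5 and E18.5. Rspo1 (chr4:124986430-125009099, plus strand) had 14 UMIs at E13.5, 91 UMIs at E15.5 and 53 UMIs at E18.5 in fibroblasts, or 13.9, 50.8 and 26.9 CPM in the same order, against 0.615, 0.716 and 0.469 CPM in the other cells. Fibroblasts held 6.52%, 11.8% and 41.4% of the UMIs of R-spondins and LGR receptors at those stages, with 2.87%, 6.03% and 13.3% of all UMIs. Chondrocytes held 61.9%, 64.3% and 22.0% of them, with 58.3%, 55.1% and 12.5% of all UMIs. Within fibroblasts Rspo1 was 3.66-fold higher (95% interval 2.07 to 6.96) at E15.5 than at E13.5. Rspo2 had 79 UMIs at E11.5, 5 UMIs at E13.5, 3 UMIs at E15.5 and 2 UMIs at E18.5, and Rspo4 36 UMIs at E11.5, 11 UMIs at E13.5, 8 UMIs at E15.5 and 3 UMIs at E18.5, with 34 of the E11.5 UMIs in limb mesenchyme.

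The LGR receptors each had their own pattern. Lgr4 had 23.8 CPM at E11.5, 43.4 CPM at E13.5 and 72.7 CPM at E15.5 in Gdf5-positive cells and 32.9 CPM at E13.5, 39.5 CPM at E15.5 and 38.0 CPM at E18.5 in chondrocytes, against 20.8 CPM at E13.5, 7.26 CPM at E15.5 and 10.2 CPM at E18.5 in fibroblasts. Lgr6, known from hair follicle and skin, had 2.95 CPM at E11.5, 12.0 CPM at E13.5, 14.2 CPM at E15.5 and 19.9 CPM at E18.5 in epithelium and 4.26 CPM at E13.5 and 14.7 CPM at E15.5 in the hypertrophic and osteoblast gate. Lgr5, a stem cell marker in several epithelia, had 23.8 CPM at E13.5, 8.94 CPM at E15.5 and 7.11 CPM at E18.5 in fibroblasts and 10.5 CPM at E11.5, 11.3 CPM at E13.5 and 16.8 CPM at E15.5 in limb mesenchyme, and 1.32 CPM at E13.5, 1.83 CPM at E15.5 and 0 CPM at E18.5 in chondrocytes. The count of 0 there allows up to 1.63 CPM. Lgr4 was thus lower in fibroblasts than in chondrocytes at each stage, and Lgr5 the reverse.

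In Gdf5-positive cells, Sfrp2 and Dkk3 were higher than in other cells at all 3 stages compared, Dkk2 at E13.5 and E15.5, and Sfrp1 at E11.5 and E15.5. Limb mesenchyme was also higher in Sfrp2, Dkk2 and Dkk3 at those 3 stages, and fibroblasts in Sfrp2 and Dkk2 at E13.5 and E15.5. In limb mesenchyme 14 of 52 members were higher at E13.5 and 13 of 49 at E15.5, where 12.4% and 10.1% of all genes were. In Gdf5-positive cells 7 of 51 members were higher at E11.5, 8 of 52 at E13.5 and 11 of 49 at E15.5, where 4.57%, 7.22% and 7.57% of all genes were. Sfrp2 (chr3:83766321-83774316, plus strand), a secreted Frizzled-related protein, had 785 UMIs at E11.5, 614 UMIs at E13.5 and 277 UMIs at E15.5 there, or 1333, 555 and 491 CPM in the same order, against 230.5, 107 and 38.9 CPM in the other cells. Limb mesenchyme had 516 CPM of Sfrp2 at E13.5, close to the Gdf5-positive level, and 226 CPM at E15.5. Dkk2 (chr3:132085292-132180304, plus strand), which binds LRP co-receptors, had 0 UMIs at E11.5, 67 UMIs at E13.5 and 119 UMIs at E15.5, or 0, 60.5 and 211 CPM at those stages, where the count of 0 allows up to 5.09 CPM. In the other cells Dkk2 had 7.65, 13.1 and 11.9 CPM, and at E13.5 limb mesenchyme had 69.2 CPM and fibroblasts 100.2 CPM. At E15.5 limb mesenchyme had 108 CPM of Dkk2. Within Gdf5-positive cells it was 3.48-fold higher (95% interval 2.56 to 4.77) at E15.5 than at E13.5. Dkk3 (chr7:112116017-112159057, minus strand), a divergent member of its family, had 20.4 CPM at E11.5, 141 CPM at E13.5 and 156 CPM at E15.5, against 9.39, 14.8 and 11.8 CPM in the other cells. Limb mesenchyme had 48.8 CPM of Dkk3 at E13.5 and 46.9 CPM at E15.5. In Gdf5-positive cells Sfrp1 had 265 CPM at E11.5, 126 CPM at E13.5 and 115 CPM at E15.5, against 56.2, 76.2 and 55.4 CPM in the other cells, a difference below 2-fold at E13.5. Of the 10 genes leading the gate at E11.5, 2 were joint markers and 2 were chondrocyte markers, and their part in these values was not tested.

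Limb mesenchyme held more inhibitor UMIs than any other gate at E11.5, with 75.3% of them and 59.3% of all UMIs. Of 51 members, 20 were higher in limb mesenchyme than in other cells at E11.5, where 9.44% of all genes were. Frzb (chr2:80411970-80447625, minus strand), a Frizzled-related protein known from cartilage, had 211 CPM there. Later Frzb had 172 CPM at E13.5 and 254 CPM at E15.5 in the hypertrophic and osteoblast gate and 34.4 CPM at E13.5, 28.3 CPM at E15.5 and 128 CPM at E18.5 in chondrocytes. Its E18.5 level in chondrocytes was 3.72-fold higher (95% interval 3.19 to 4.32) than that of E13.5. Wif1 had 53.3 CPM in limb mesenchyme at E11.5 and 99.6 CPM at E13.5 and 131 CPM at E15.5 in the hypertrophic and osteoblast gate.

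At E18.5 fibroblasts and chondrocytes held 34.7% and 25.7% of inhibitor UMIs, with 13.3% and 12.5% of all UMIs. Wif1 (chr10:121033960-121100650, plus strand), which binds WNT proteins directly, had 24 UMIs at E13.5, 179 UMIs at E15.5 and 571 UMIs at E18.5 in fibroblasts, or 23.8, 100.0 and 290.1 CPM in the same order, and 13.4 CPM at E13.5, 19.3 CPM at E15.5 and 147 CPM at E18.5 in chondrocytes. Within chondrocytes it was 10.9-fold higher (95% interval 9.21 to 13) at E18.5 than at E13.5, and the 270 UMIs at E18.5 came from 47 of 245 cells, with up to 30 in 1 cell. Dkk2 had 100.2 CPM at E13.5, 78.2 CPM at E15.5 and 41.7 CPM at E18.5 in fibroblasts, Dkk3 38.7 CPM at E13.5, 24.0 CPM at E15.5 and 58.4 CPM at E18.5, and Dkk1 5.95 CPM at E13.5, 15.6 CPM at E15.5 and 19.8 CPM at E18.5. Sfrp5 had 0 UMIs at E13.5, 111 UMIs at E15.5 and 15 UMIs at E18.5 in fibroblasts, and the count of 0 allows up to 2.98 CPM, against 62.0 CPM at E15.5. Sfrp1 had 106 CPM at E13.5, 88.0 CPM at E15.5 and 83.7 CPM at E18.5 in chondrocytes.

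Of the members, 15 of 52 were higher in fibroblasts than in other cells at E13.5, 19 of 49 at E15.5 and 17 of 48 at E18.5, where 9.77%, 9.23% and 7.69% of all genes were. Wnt5a, Wnt9a, Rspo1, Rspo3, Sfrp2, Dkk1, Dkk2, Axin2 and Nkd1 were among them at all 3 stages, so the gate held ligands, agonists, inhibitors and feedback genes at once.

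Among inhibitors, Kremen2 was higher in epithelium than in other cells at all 4 stages, Kremen1 at E11.5, E13.5 and E15.5, Sost at E11.5 and E13.5, and Notum at E11.5. Sost had 747 UMIs at E11.5, 8 UMIs at E13.5, 5 UMIs at E15.5 and 1 UMI at E18.5 in epithelium, or 200.5, 2.73, 2.54 and 0.586 CPM in the same order. At E11.5 they were 747 of the 777 Sost UMIs of the library, in 161 of 367 epithelial cells, with up to 26 in 1 cell. At E13.5 endothelium was also higher in Sost than other cells, with 9 UMIs, and its level of 8.29 CPM stood above that of epithelium. Kremen2 (chr17:23741197-23745833, minus strand), a DKK receptor, had 147 CPM at E11.5, 196 CPM at E13.5, 176 CPM at E15.5 and 108 CPM at E18.5 in epithelium, against 2.58, 2.76, 2.85 and 1.38 CPM in the other cells. Its paralogue Kremen1 had 25.5 CPM at E11.5, 14.0 CPM at E13.5, 19.8 CPM at E15.5 and 28.1 CPM at E18.5 in epithelium and 5.95 CPM at E13.5, 34.1 CPM at E15.5 and 30.5 CPM at E18.5 in fibroblasts. Notum had 7.47 CPM at E13.5, 7.87 CPM at E15.5 and 22.3 CPM at E18.5 in chondrocytes and 21.5 CPM at E11.5, 0.684 CPM at E13.5, 4.58 CPM at E15.5 and 5.28 CPM at E18.5 in epithelium.

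**Figure D4:**
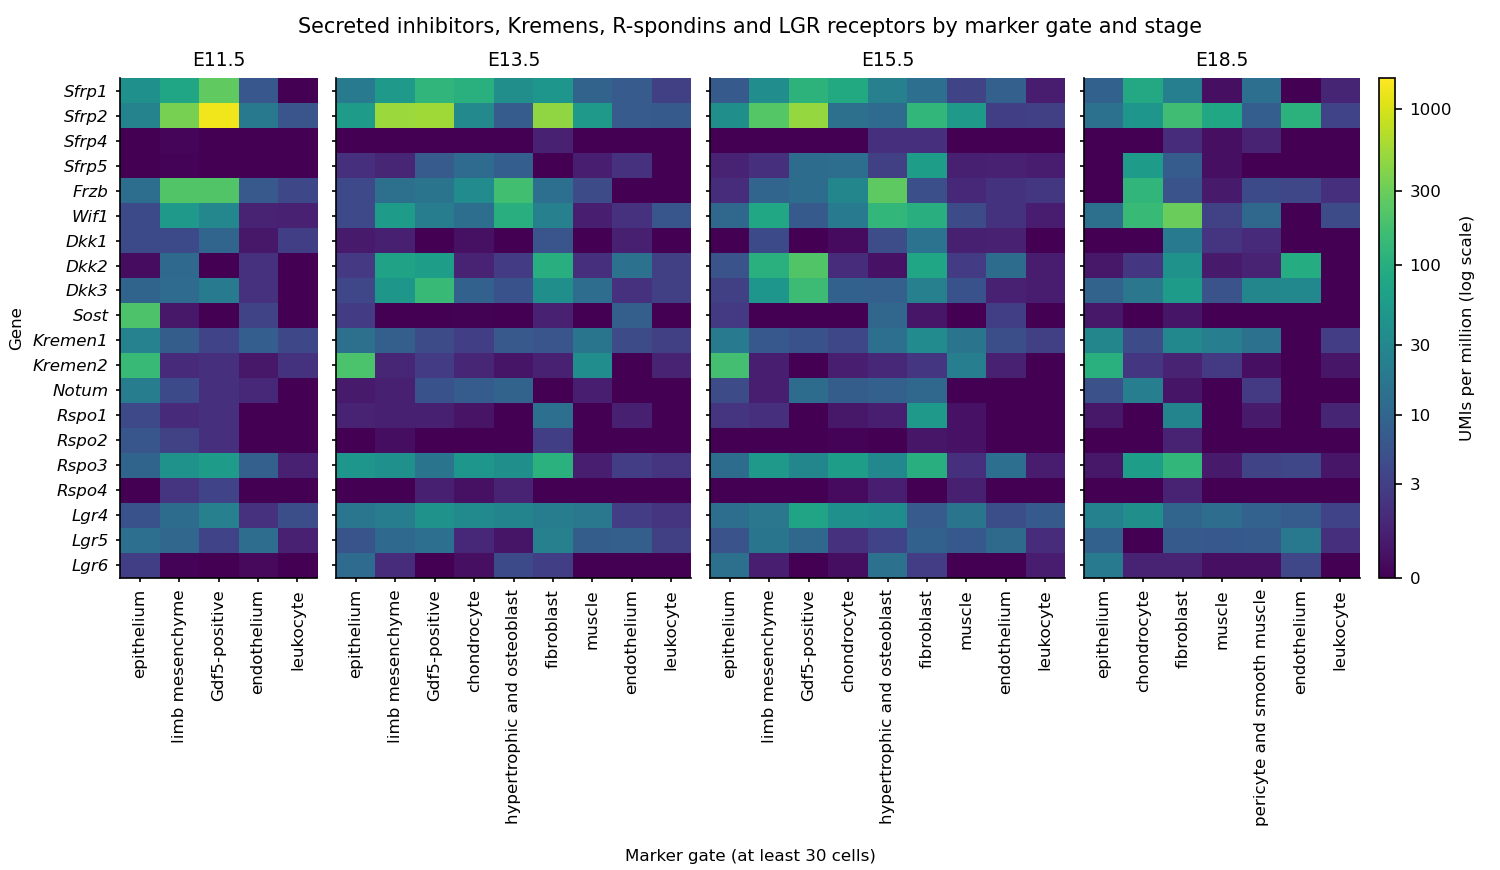
CPM of inhibitors, R-spondins and LGR receptors in each gate of at least 30 cells at each stage, on a logarithmic colour scale. Brighter colours are higher levels. Sfrp2 and Dkk3 were brightest in Gdf5-positive columns, Sost in the E11.5 epithelium column, Kremen2 in all epithelium columns, and Wif1 in fibroblasts at E18.5.

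The feedback targets Nkd1 and Axin2 were higher in fibroblasts than in other cells at the 3 stages of that gate, and Nkd1 was also higher in limb mesenchyme from E11.5 to E15.5. Nkd1 (chr8:88521354-88594884, plus strand), an inhibitor of Dishevelled, had 55 UMIs at E13.5, 315 UMIs at E15.5 and 275 UMIs at E18.5 in fibroblasts, or 54.5, 176 and 139.7 CPM in the same order, against 15.1, 15.8 and 18.1 CPM in the other cells. Axin2 (chr11:108920349-108950783, plus strand), part of the complex that degrades β-catenin and a widely used target gene, had 14.9 CPM at E13.5, 43.6 CPM at E15.5 and 22.4 CPM at E18.5 in fibroblasts and 18 CPM in limb mesenchyme at E11.5. Lef1 had 22.8 CPM at E13.5, 63.1 CPM at E15.5 and 22.9 CPM at E18.5 in fibroblasts and 42.1 CPM at E11.5, 69.1 CPM at E13.5, 75.8 CPM at E15.5 and 66.2 CPM at E18.5 in epithelium. Nkd1, Axin2 and Lef1 were each highest in fibroblasts at E15.5 among the 3 stages of that gate.

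Within fibroblasts, 12 of 32 members were higher and 6 lower at E15.5 than at E13.5, where 3.76% and 4.46% of all genes were. Nkd1 was 3.23-fold higher (95% interval 2.42 to 4.38), Axin2 2.93-fold higher (95% interval 1.67 to 5.48), Lef1 2.77-fold higher (95% interval 1.75 to 4.54) and Tcf7 4.04-fold higher (95% interval 1.71 to 11.6). The other higher members were Wnt4, Wnt6, Wnt11, Rspo1, Sfrp5, Wif1, Dkk1 and Kremen1. The lower ones were Wnt5b, Lgr4, Lgr5, Sfrp1, Sfrp2 and Frzb, and Sfrp2 was 3.55-fold lower (95% interval 3.03 to 4.18). Wnt6, otherwise epithelial, had 2 UMIs at E13.5, 18 UMIs at E15.5 and 53 UMIs at E18.5 in fibroblasts, at most 3 of them in 1 cell. At E18.5 over E15.5 within fibroblasts, 5 of 36 members were higher (Wnt6, Fzd7, Fzd8, Wif1 and Dkk3) and 5 lower (Wnt4, Wnt5a, Sfrp5, Notum and Lef1), where 5.9% and 8.05% of all genes were. The gate's cells numbered 135, 235 and 310 in these libraries, and which kinds of fibroblast it took at each stage was not tested.

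Tcf7l2 and Tcf7l1, further DNA-binding partners of β-catenin, were spread over most gates. Tcf7l2 had 284 CPM at E11.5, 191 CPM at E13.5 and 268 CPM at E15.5 in Gdf5-positive cells, 85.2 CPM at E13.5, 96.2 CPM at E15.5 and 81.5 CPM at E18.5 in chondrocytes and 78.1 CPM at E11.5, 90.3 CPM at E13.5, 76.8 CPM at E15.5 and 72.1 CPM at E18.5 in epithelium. Tcf7l1 had 54.1 CPM at E13.5, 63.6 CPM at E15.5 and 40.2 CPM at E18.5 in chondrocytes and 67.4 CPM at E11.5, 36.2 CPM at E13.5, 26.4 CPM at E15.5 and 13.5 CPM at E18.5 in epithelium, where the E18.5 level was the lowest. Tcf7, known from T cells, had 140 UMIs in leukocytes at E15.5, in 21 of 97 cells with up to 21 in 1 cell, or 108 CPM.

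Leukocytes were otherwise low in WNT genes, and so were endothelium and muscle at some stages. Of the members, 36 of 51 were lower in leukocytes than in the other cells at E11.5, 30 of 52 at E13.5, 35 of 49 at E15.5 and 43 of 48 at E18.5, where 23.0%, 19.3%, 20.8% and 28.9% of all genes were. In endothelium 38 of 51, 25 of 52, 26 of 49 and 11 of 48 were lower at the same stages, where 23.8%, 13.7%, 14.2% and 7.0% of all genes were. In muscle 21 of 52 were lower at E13.5, 31 of 49 at E15.5 and 37 of 48 at E18.5, where 14.8%, 23.6% and 28.5% of all genes were. Muscle cells had 16.4 CPM at E13.5, 15.9 CPM at E15.5 and 22.5 CPM at E18.5 of Kremen1 and 36.3 CPM at E13.5, 22.1 CPM at E15.5 and 2.46 CPM at E18.5 of Kremen2. Pericytes and smooth muscle, gated at E18.5, had 21.8 CPM of Wnt5a, 11.3 of Wnt11 and 9.15 of Ror1. In E18.5 endothelium 30 Sfrp2 UMIs were counted, and 23 of them were in 1 cell. Wnt1 had 46 of its 155 UMIs at E11.5 in endothelium, at 9.55 CPM, and 90 in limb mesenchyme, at 5.62 CPM.

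Within chondrocytes, 11 of 37 members were higher and 1 lower at E18.5 than at E13.5, where 7.51% and 5.25% of all genes were. The lower one was Wnt4, which was 2.54-fold lower (95% interval 1.76 to 3.82). Fzd9 was 2.08-fold higher (95% interval 1.82 to 2.36) and Sfrp5 4.70-fold higher (95% interval 3.71 to 5.92). Of the 11, 6 were Frizzled receptors other than Fzd9, namely Fzd1, Fzd4, Fzd5, Fzd6, Fzd7 and Fzd8. Fzd1, Fzd7, Fzd8, Fzd9, Sfrp5, Frzb, Wif1 and Notum were higher both in this comparison and against the other cells of the E18.5 library. The gate held 245 cells at E18.5, against 1379 at E13.5, and whether both hold the same mix of cells was not tested.

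Over whole libraries, the members had 43385 UMIs at E11.5, 35923 UMIs at E13.5, 27664 UMIs at E15.5 and 11264 UMIs at E18.5, or summed levels of 1607, 1022, 930.7 and 763.2 CPM in the same order. At E13.5 over E11.5, 4 of 55 members were higher and 21 lower, where 12.8% and 26.1% of all genes were. The 4 were Fzd9, Lgr4, Lgr6 and Sfrp5. Relative to the median gene, which stood at a log2 ratio of -0.55, 13 members were higher and 14 lower, where 19.6% and 9.52% of all genes were. Fzd9 had 3.11 CPM at E11.5, 49.5 CPM at E13.5, 63.5 CPM at E15.5 and 24.7 CPM at E18.5 and Sfrp5 0.0741 CPM at E11.5, 8.34 CPM at E13.5, 12.0 CPM at E15.5 and 9.15 CPM at E18.5. The chondrocyte gate held 1379 cells at E13.5, against 10 at E11.5.

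At E15.5 over E13.5, 3 of 52 members were higher (Rspo1, Dkk1 and Tcf7) and 3 lower (Wnt3a, Wnt7b and Sfrp2), where 3.85% and 0.97% of all genes were. Rspo1 had 1.56 CPM at E11.5, 0.996 CPM at E13.5, 3.73 CPM at E15.5 and 4.00 CPM at E18.5, and Sfrp2 had 255 CPM at E11.5, 121 CPM at E13.5, 47.4 CPM at E15.5 and 56.2 CPM at E18.5. The Tcf7 difference moved with leukocyte cells, which held 140 of its 262 UMIs at E15.5 and 11 of its 120 at E13.5, and their part in it was not tested. These neighbouring stages held the fewest called members of the 4 stage pairs compared.

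At E18.5 over E15.5, 7 of 50 members were higher and 5 lower, where 11.7% and 8.26% of all genes were. Relative to the median gene, at a log2 ratio of -0.14, 11 members were higher and 4 lower, where 13.6% and 6.31% of all genes were. The higher ones as CPM were Wnt1, Wnt10b, Wnt16, Fzd4, Fzd5, Ror1 and Wif1, and the lower ones Wnt5b, Fzd9, Sfrp1, Sost and Lef1. Wif1 had 35.3 CPM at E11.5, 22.6 CPM at E13.5, 32.4 CPM at E15.5 and 69.2 CPM at E18.5 (log2 ratio 1.09, 95% interval 0.96 to 1.22 for E18.5 over E15.5), and Sfrp1 had 60.7 CPM at E11.5, 77.8 CPM at E13.5, 56.6 CPM at E15.5 and 19.4 CPM at E18.5 (log2 ratio -1.54, 95% interval -1.73 to -1.36). Chondrocytes made up 245 of 1904 kept cells at E18.5, against 1353 of 2598 at E15.5. Fzd9 was lower over the whole E18.5 library while its level within chondrocytes was 151 CPM at E18.5, against 101 CPM at E15.5.

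Across the whole span, at E18.5 over E11.5, 9 of 55 members were higher and 24 lower, where 16.5% and 35.0% of all genes were. Relative to the median gene, at a log2 ratio of -0.63, 14 members were higher and 18 lower, where 24.4% and 13.9% of all genes were. The 9 were Wnt10a, Wnt10b, Wnt16, Fzd5, Fzd9, Rspo1, Lgr6, Sfrp5 and Dkk3. Wnt16 had 0.963 CPM at E11.5, 1.48 CPM at E13.5, 2.15 CPM at E15.5 and 8.67 CPM at E18.5 (log2 ratio 3.17, 95% interval 2.55 to 3.84 for E18.5 over E11.5). Among the lower members, Sost had 777 UMIs at E11.5, 23 UMIs at E13.5, 33 UMIs at E15.5 and 2 UMIs at E18.5 and Wnt7a 341 UMIs at E11.5, 74 UMIs at E13.5, 38 UMIs at E15.5 and 10 UMIs at E18.5. The members' median log2 ratio was -0.72, and that of all genes -0.63.

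**Figure D5:**
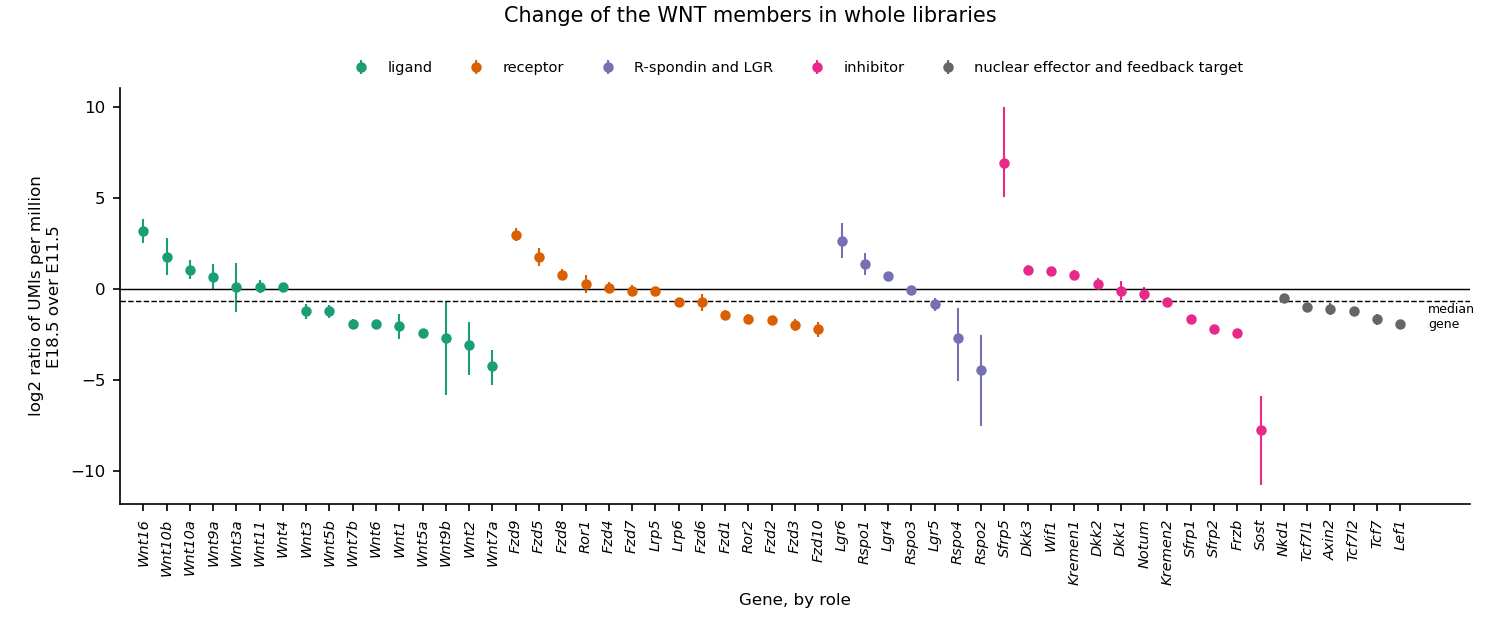
log2 ratio of CPM at E18.5 over E11.5 for each member, grouped by role, with exact 95% intervals; the dashed line marks the median gene at -0.63. Sfrp5, Fzd9 and Wnt16 lay far above the line, and Sost, Rspo2 and Wnt7a far below it.

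The levels of the other members over whole libraries follow. Wnt1, which is known from the neural tube, had 5.74 CPM at E11.5, 0.968 CPM at E13.5, 0.639 CPM at E15.5 and 1.42 CPM at E18.5. Wnt2 had 2.85 CPM at E11.5, 0.598 CPM at E13.5, 0.370 CPM at E15.5 and 0.339 CPM at E18.5. Wnt3 had 9.89 CPM at E11.5, 6.06 CPM at E13.5, 3.06 CPM at E15.5 and 4.27 CPM at E18.5. These 3 ligands were lower at E18.5 than at E11.5. Wnt5a had 65.4 CPM at E11.5, 31.1 CPM at E13.5, 21.3 CPM at E15.5 and 12.1 CPM at E18.5. Wnt5b had 11.9 CPM at E11.5, 15.9 CPM at E13.5, 11.8 CPM at E15.5 and 5.08 CPM at E18.5. Wnt6 had 88.7 CPM at E11.5, 35.4 CPM at E13.5, 24.5 CPM at E15.5 and 23.6 CPM at E18.5. These were lower as well. Wnt7b had 40.2 CPM at E11.5, 16.2 CPM at E13.5, 7.33 CPM at E15.5 and 10.8 CPM at E18.5. Wnt9b had 0.889 CPM at E11.5, 0.142 CPM at E13.5, 0.0673 CPM at E15.5 and 0.136 CPM at E18.5. Both were lower too, which with Wnt7a made 9 lower ligands of 17, where 35.0% of all genes were lower. Relative to the median gene, Wnt3 and Wnt5b were no longer called, and the others of the 9 stayed lower. Among ligands called higher, Wnt10a had 2.44 CPM at E11.5, 4.33 CPM at E13.5, 4.11 CPM at E15.5 and 5.15 CPM at E18.5. Wnt10b had 0.519 CPM at E11.5, 0.740 CPM at E13.5, 0.774 CPM at E15.5 and 1.76 CPM at E18.5. The remaining ligands with at least 20 UMIs, Wnt9a included, passed the size rule in neither direction over that span. Wnt3a had 0.556 CPM at E11.5, 0.882 CPM at E13.5, 0.235 CPM at E15.5 and 0.610 CPM at E18.5. Wnt4 had 33.4 CPM at E11.5, 58.6 CPM at E13.5, 44.8 CPM at E15.5 and 35.6 CPM at E18.5. Wnt11 had 6.11 CPM at E11.5, 4.16 CPM at E13.5, 3.50 CPM at E15.5 and 6.71 CPM at E18.5.

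Of the 14 receptors and co-receptors, 5 were lower at E18.5 than at E11.5, Fzd3 among them, where 35.0% of all genes were. Relative to the median gene, Fzd2, Fzd3 and Fzd10 stayed lower, and Fzd1 and Ror2 were no longer called. Fzd1 had 35.4 CPM at E11.5, 11.7 CPM at E13.5, 13.7 CPM at E15.5 and 13.4 CPM at E18.5. Fzd2 had 141 CPM at E11.5, 74.8 CPM at E13.5, 68.9 CPM at E15.5 and 44.0 CPM at E18.5. Fzd10 had 18 CPM at E11.5, 5.86 CPM at E13.5, 3.80 CPM at E15.5 and 3.86 CPM at E18.5. Ror2, the co-receptor among the 5, had 37.9 CPM at E11.5, 25.3 CPM at E13.5, 22.9 CPM at E15.5 and 12.3 CPM at E18.5. Fzd5 was higher, and Fzd4, Fzd6, Fzd7, Fzd8, Lrp5, Lrp6 and Ror1 were called in neither direction. Fzd5 had 2.0 CPM at E11.5, 1.28 CPM at E13.5, 0.976 CPM at E15.5 and 6.84 CPM at E18.5. Fzd4 had 9.52 CPM at E11.5, 5.86 CPM at E13.5, 4.91 CPM at E15.5 and 10.1 CPM at E18.5. Fzd6 had 6.08 CPM at E11.5, 3.70 CPM at E13.5, 4.14 CPM at E15.5 and 3.66 CPM at E18.5. The co-receptors Lrp5 and Lrp6 and the receptor tyrosine kinase Ror1 also stayed within 2-fold between those stages. Fzd8 had 6.26 CPM at E11.5, 9.22 CPM at E13.5, 8.18 CPM at E15.5 and 10.9 CPM at E18.5. Lrp5 had 15.2 CPM at E11.5, 10.3 CPM at E13.5, 11.9 CPM at E15.5 and 14.0 CPM at E18.5. Lrp6 had 23.1 CPM at E11.5, 21.8 CPM at E13.5, 22.1 CPM at E15.5 and 14.2 CPM at E18.5. For Ror1 the levels were 3.30 CPM at E11.5, 1.39 CPM at E13.5, 1.88 CPM at E15.5 and 4.07 CPM at E18.5.

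Lgr6 was higher at E18.5 than at E11.5, as was Rspo1, while Rspo2 and Rspo4 were lower, and Rspo3, Lgr4 and Lgr5 were called in neither direction. Lgr6 had 0.482 CPM at E11.5, 1.71 CPM at E13.5, 2.52 CPM at E15.5 and 2.98 CPM at E18.5. Rspo3 had 28.9 CPM at E11.5, 42.0 CPM at E13.5, 46.7 CPM at E15.5 and 27.9 CPM at E18.5. Lgr4 had 9.78 CPM at E11.5, 27.8 CPM at E13.5, 30.3 CPM at E15.5 and 15.9 CPM at E18.5. For Lgr5 the levels were 11.2 CPM at E11.5, 4.27 CPM at E13.5, 4.61 CPM at E15.5 and 6.30 CPM at E18.5. Frzb was lower with Sfrp1, Sfrp2 and Sost, and Dkk3 was higher with Sfrp5. Frzb had 136 CPM at E11.5, 32.7 CPM at E13.5, 36.9 CPM at E15.5 and 25.6 CPM at E18.5. Dkk3 had 9.63 CPM at E11.5, 18.7 CPM at E13.5, 14.6 CPM at E15.5 and 20.3 CPM at E18.5. Wif1, Dkk1, Dkk2, Kremen1, Kremen2 and Notum were called in neither direction over that span. Dkk1 had 3.52 CPM at E11.5, 0.598 CPM at E13.5, 1.72 CPM at E15.5 and 3.32 CPM at E18.5. Dkk2 had 7.48 CPM at E11.5, 14.6 CPM at E13.5, 15.6 CPM at E15.5 and 9.01 CPM at E18.5. Notum had 5.89 CPM at E11.5, 5.24 CPM at E13.5, 6.33 CPM at E15.5 and 4.81 CPM at E18.5. The DKK receptors Kremen1 and Kremen2 did not share an order of stages. Kremen1 had 10.0 CPM at E11.5, 5.32 CPM at E13.5, 8.78 CPM at E15.5 and 17.2 CPM at E18.5. Kremen2 had 22.5 CPM at E11.5, 18.8 CPM at E13.5, 14.3 CPM at E15.5 and 13.7 CPM at E18.5.

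Of the effectors and feedback targets, 4 of 6 were lower at E18.5 than at E11.5, where 35.0% of all genes were. Relative to the median gene, Lef1 and Tcf7 stayed lower, and Axin2 and Tcf7l2 were no longer called. Axin2 had 14.0 CPM at E11.5, 5.8 CPM at E13.5, 9.02 CPM at E15.5 and 6.50 CPM at E18.5. Lef1 had 55.4 CPM at E11.5, 29.1 CPM at E13.5, 30.04 CPM at E15.5 and 14.8 CPM at E18.5. Tcf7 had 23.5 CPM at E11.5, 3.42 CPM at E13.5, 8.81 CPM at E15.5 and 7.52 CPM at E18.5. Tcf7l2, the last of the 4, had 162 CPM at E11.5, 98.4 CPM at E13.5, 104 CPM at E15.5 and 68.9 CPM at E18.5. Tcf7l1 and Nkd1 were called in neither direction. Tcf7l1 had 55.8 CPM at E11.5, 49.0 CPM at E13.5, 50.5 CPM at E15.5 and 28.3 CPM at E18.5. Nkd1 had 48.9 CPM at E11.5, 16.2 CPM at E13.5, 25.5 CPM at E15.5 and 34.3 CPM at E18.5.

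Other genes of the pathway were taken from a list of 55 by name, of which 54 were in the files, and their counts stand against the shares of all genes given above. At E13.5 over E11.5, 4 of 53 were higher (Prickle1, Cthrc1, Trabd2b and En1) and 20 lower. At E15.5 over E13.5, 4 of 52 were higher (Apcdd1, Nkd2, Sp5 and Twist2) and 1 lower (Dact2). At E18.5 over E15.5, 6 of 52 were higher (Rnf43, Gpc4, Sostdc1, Tgfb1i1, Dact2 and En1) and 4 lower (Prickle1, Cthrc1, Shisa2 and Lmx1b). At E18.5 over E11.5, 5 of 54 were higher (Gpc4, Cthrc1, Trabd2b, Sp5 and En1) and 24 lower, and relative to the median gene 12 were higher and 11 lower, which stand against the 24.4% and 13.9% of all genes under that scaling. Fgf8, the ridge growth factor, was 105.5-fold lower at E18.5 than at E11.5, and Lmx1b, the dorsal limb factor downstream of Wnt7a, was 26.5-fold lower. Cthrc1, a secreted cofactor of WNT and Frizzled, was 6.13-fold higher, and Trabd2b, a protease that cleaves WNT proteins, 11-fold higher. The median log2 ratio of these genes at E18.5 over E11.5 was -0.92.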

How the data were processed

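Single-cell RNA of mouse hindlimb was measured in 4 libraries, 1 per stage. The authors deposited filtered UMI counts per gene and cell barcode, raw and not normalized, per the file headers and values. The submitters' processing notes name Cell Ranger (version not given in the sources used here), the mm10 genome and Seurat 2.3.4. Barcodes with at least 200 genes and at most 10% mitochondrial UMIs were kept, which removed 43 barcodes at E11.5, 68 barcodes at E13.5, 110 barcodes at E15.5 and 93 barcodes at E18.5. UMIs were summed over cells and divided by the sum of all genes but globins (26992279 UMIs at E11.5, 35140197 UMIs at E13.5, 29722387 UMIs at E15.5 and 14758059 UMIs at E18.5) to give CPM.

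Of 14 marker lists without WNT genes, 12 were used to gate cells. The apical ridge and red cell lists set no gate, and Fgf8 alone divided the E11.5 epithelium. Markers were listed first, and the numbers of markers and UMI shares required were set after seeing the markers' distributions. The 4 cells at E11.5, 3 cells at E13.5, 4 cells at E15.5 and 29 cells at E18.5 that passed more than 1 gate of unrelated classes were left out as mixed, and no doublet caller was run. Gdf5-positive cells had at least 2 Gdf5 UMIs and another joint marker. Intervals are exact, Poisson for levels, binomial for shares and conditional binomial for ratios. The members and lists were chosen with earlier results of these data known. Members with at least 20 UMIs in some library are given with values, and other pathway genes where called with the largest ratios. Alternatives were scaling to the median gene, all barcodes, other minimums and folds, stricter gates, Leiden clusters, mixed cells kept and thinning to 5000 UMIs. Counting code was tested on simulated data. Gene positions are from GENCODE vM21 and promoter windows from RefSeq, both on GRCm38. Python 3.11.15, numpy 2.4.6, scipy 1.17.1, pandas 2.3.3, leidenalg 0.10.2 and matplotlib 3.10.9 were used.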

Additional observations from a re-analysis of the deposited data

Results flagged for a closer look

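In 11 members, gates of at least 30 cells were called in opposite directions between neighbouring stages, both as CPM and relative to the median gene, with Sfrp5 over 2 of the stage pairs. The difference between gates was not tested in any of them. Values are log2 ratios unless a fold is named, with CPM of the later stage first. Fzd10 at E13.5 over E11.5 stood at 1.77 in epithelium, with 58.5 and 17.2 CPM, and at -2.16 in endothelium, with 5.53 and 24.7 CPM from 6 and 119 UMIs, and at -2.55 in limb mesenchyme, with 3.05 and 17.9 CPM. Fzd6 at E18.5 over E15.5 stood at 1.87 in endothelium, with 63.7 and 17.4 CPM, and at -1.27 in epithelium, with 12.9 and 31.0 CPM. Notum at E18.5 over E15.5 stood at 1.5 in chondrocytes, with 22.3 and 7.87 CPM, and at -4.38 in fibroblasts, with 0.508 and 10.6 CPM from 1 and 19 UMIs. Rspo3 at E13.5 over E11.5 stood at 2.3 in epithelium, with 47.5 and 9.66 CPM, and at -1.83 in Gdf5-positive cells, with 16.3 and 57.7 CPM. Sfrp2 at E18.5 over E15.5 stood at 5.28 in endothelium, with 112 and 2.90 CPM from 30 and 3 UMIs, and at 1.75 in chondrocytes, with 47.3 and 14.1 CPM, and at -1.40 in epithelium, with 14.7 and 38.6 CPM. Most of those 30 endothelial Sfrp2 UMIs came from 1 cell, as given above. Sfrp5 at E15.5 over E13.5 was at least 20.8-fold higher in fibroblasts, with 62.0 and 0 CPM, and stood at -1.40 in the hypertrophic and osteoblast gate, with 3.02 and 7.99 CPM from 7 and 15 UMIs. Sfrp5 at E18.5 over E15.5 stood at 2.10 in chondrocytes, with 57.6 and 13.4 CPM, and at -3.02 in fibroblasts, with 7.62 and 62.0 CPM. Tcf7 at E15.5 over E13.5 stood at 3.26 in leukocytes, with 108 and 11.3 CPM, and at 2.01 in fibroblasts, with 24.0 and 5.95 CPM from 43 and 6 UMIs, and at -1.72 in the hypertrophic and osteoblast gate, with 2.59 and 8.52 CPM from 6 and 16 UMIs. Tcf7l2 at E15.5 over E13.5 stood at 1.08 in the hypertrophic and osteoblast gate, with 217 and 103 CPM, and at -1.33 in leukocytes, with 14.7 and 36.9 CPM. Wif1 at E15.5 over E13.5 stood at 1.38 in epithelium, with 10.7 and 4.10 CPM, and at 2.07 in fibroblasts, with 100.0 and 23.8 CPM, and at -1.61 in Gdf5-positive cells, with 7.09 and 21.7 CPM from 4 and 24 UMIs. Wnt11 at E15.5 over E13.5 stood at 1.21 in fibroblasts, with 20.7 and 8.93 CPM from 37 and 9 UMIs, and at -1.06 in chondrocytes, with 1.53 and 3.17 CPM. Wnt6 at E15.5 over E13.5 stood at 2.34 in fibroblasts, with 10.1 and 1.98 CPM from 18 and 2 UMIs, and at -1.58 in chondrocytes, with 0.732 and 2.20 CPM.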

How the results depend on the processing

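Of 119 counts of called genes recomputed under an alternative, 106 stayed within 1.5 times the reported count and 13 moved. A change of direction was not looked for in these counts. Relative to the median gene, 13 members were higher at E13.5 over E11.5 (4 as reported), 11 at E18.5 over E15.5 (7 as reported) and 14 at E18.5 over E11.5 (9 as reported). With a fold of 1.5 in place of 2, 8 members were higher at E13.5 over E11.5, 6 higher and 6 lower at E15.5 over E13.5, and 11 higher and 14 lower at E18.5 over E15.5. Alternatives chosen after seeing the data scaled other pathway genes and gates to the median gene. They gave 10 other pathway genes lower at E13.5 over E11.5 (20 as reported), 12 higher and 11 lower at E18.5 over E11.5 (5 and 24 as reported), and 12 members higher within epithelium at E18.5 over E11.5 (7 as reported). With Leiden clusters in place of gates, 178 cells stood for the Gdf5-positive class at E11.5 and 4 members were higher, 2 of them among the 7 reported, and no cluster gave a value at E13.5 or E15.5. A count within 1.5 times can still hold other genes. For fibroblasts at E13.5, Leiden clusters gave 11 higher members, 9 of them among the 15 reported. The cause of each move was not tested beyond the setting itself. The log2 ratios at E18.5 over E11.5 stayed within their intervals for 55 of 55 members with all barcodes and for 13 relative to the median gene, where 42 moved and 0 reversed. Only members called in that stage pair could be labelled as reversed, so a change of sign in an uncalled member is not counted there. Thinning moved 126 of 240 shares of cells past their interval. With 1 library per stage no replicate could be left out, and members near 20 UMIs could show only large folds. No paired analysis was possible because each stage has 1 library.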
